A study of Caenorhabditis elegans with 54 samples.

Results

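The genes described are 41 nuclear genes of Caenorhabditis elegans that encode subunits of the mitochondrial oxidative phosphorylation system, out of 20728 genes listed in the deposited tables. They were taken from a list of symbols matched to WormBase gene identifiers. All 41 were found in each of the 9 tables, and all 41 passed the filter on low values in each of them. They are 13 genes of complex I, 4 of complex II, 6 of complex III, 2 cytochrome c genes, 7 of complex IV and 9 of complex V.

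RNA of a ribosome-bound fraction was compared with total RNA of the same strain in 9 experiments, each with 3 libraries of the fraction and 3 of total RNA, from adults on day 1 of adulthood kept at 20 °C. In 6 experiments the fraction was RNA bound to immunoprecipitated ribosomes (IP) that carried a tagged RPL-22, a protein of the large ribosomal subunit. The tagged protein was driven by the nep-17 promoter for the intestine (strain WBM1470, wbmIs131), the myo-3 promoter for muscle (WBM1339, wbmIs118) and the eft-3 promoter for the soma (WBM1364, wbmIs119). For the intestine strain the series text gives WBM1471, and the sample labels were followed here. The rab-3 promoter drove it in neurons in 2 strains, called neurons A (MSD473, wbmls99) and neurons B (WBM1471, wbmIs133). In the ubiquitous strain (MSD470, rpl-22(wbm58)) the tag sat at the endogenous rpl-22 gene. The other 3 experiments used sucrose gradients: polysomes of the ubiquitous strain, pooled ribosomal subunit, monosome and polysome fractions of the same strain, and polysomes of wild-type Bristol N2, which carries no tag. Total RNA came from the whole animal in every experiment, so an IP ratio sets the tissue that carries the tag against all tissues. More cells of a type and more ribosome-bound RNA per cell cannot be told apart in such a ratio. The labels do not say that replicates were separate cultures, so each p-value reflects only how these libraries vary, and that variation may be technical.

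Complexes I to IV form the respiratory chain of the inner mitochondrial membrane. They pass electrons from NADH and succinate through ubiquinone and cytochrome c to oxygen, and complexes I, III and IV pump protons as they do so. Complex V, the ATP synthase, uses the proton gradient to make ATP. Most subunits are encoded in the nucleus and translated on cytosolic ribosomes, whereas a small set is encoded in mitochondrial DNA and translated inside the organelle. Body wall muscle contracts throughout adult life and is rich in mitochondria, and the adult germline has its own dense mitochondrial population.

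Depth was estimated at 7.04 to 78.8 M reads per library (median 32.9). The third neurons A IP library had 7896 genes at 0 and its correlation with another replicate fell to 0.644, and the second intestine IP library, the shallowest, had 6112 genes at 0. The third neurons A total RNA library also stood apart, with 0.756% of its summed counts in the 41 genes against 1.75% and 1.88% in the other two. Markers of the intended tissue were higher in the single-tissue IPs: 8 of 8 body wall muscle markers rose in the muscle IP, 9 of 9 intestine markers in the intestine IP, and 9 of 10 neuron markers in neurons A (snb-1, at a log2 ratio of 2.98, had an adjusted p of 0.0782 by limma) and 10 of 10 in neurons B. In neurons B 5 of 9 intestine markers rose as well, and these markers held 3.74% to 5.36% of the IP libraries against 2.43% to 2.9% of the total RNA.

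The muscle IP held the largest share of these genes. They made up 3.84%, 4.22% and 4.18% of the summed normalized counts of the 3 muscle IP libraries and 1.88%, 1.66% and 1.63% of the muscle total RNA. In the soma IP the share was 2.53% to 2.78% against 1.65% to 1.87%, and in wild-type polysomes it was 1.95% to 2.13% against 1.1% to 1.15%. In the intestine IP the shares were 2.34%, 1.42% and 2.2% against 1.45%, 1.43% and 1.71%, so the second IP library lay under all 3 total RNA libraries and the other 2 above them. The shares overlapped between IP and total RNA in neurons A and neurons B.

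**Figure D1:**
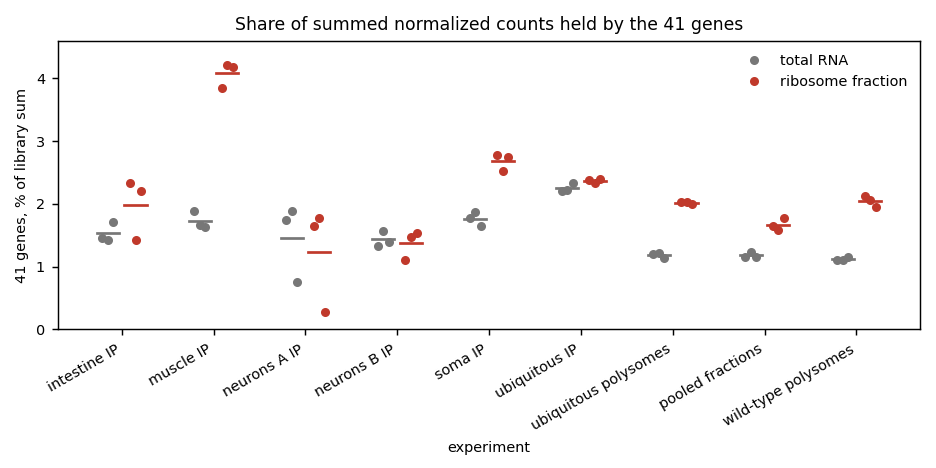
Share of each library's summed normalized counts (y axis, %) held by the 41 genes, by experiment (x axis), with grey points for total RNA libraries, red points for ribosome fraction libraries and lines for the mean of 3 libraries. The muscle IP libraries lie between 3.84% and 4.22%, above every other library.

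Each gene was tested by limma on log2 of the normalized count plus 1, with p-values adjusted by the Benjamini-Hochberg method over all genes tested in that experiment, and "rose" or "fell" marks an adjusted p under 0.05. In the muscle IP 38 of the 41 genes rose and 2, ucr-2.3 and cyc-2.2, fell, where 23.1% of all genes tested rose and 13.1% fell. Their median log2 ratio over total RNA was 2.75, against -0.14 for all genes tested. The 2 that fell became 0 without the second or the third IP library and 1 without the first total RNA library. In the intestine IP 32 rose and 2, ucr-2.3 and asb-1, fell, against 17.8% and 9.61% of all genes, with a median log2 ratio of 1.37 against -0.42. The intestine count depended on scaling and on single libraries. When every library was scaled to an equal sum 7 rose and 3 fell (10.7% and 40% of all genes), and the median log2 ratio was 0.18 against -1.65 for all genes. Relative to all genes the median was 1.79 higher as deposited and 1.83 higher under equal sums. The number that rose was 3 without replicate 1 of both fractions, 18 without replicate 3, and 18, 17 and 19 without the first IP, first total RNA or second total RNA library. The 2 that fell were 1 without the first or the second total RNA library. In the muscle IP 35 rose and 3 fell under equal sums (11.1% and 71.2% of all genes), and 38 rose when any single library or replicate was left out. The muscle median stood 2.89 above that of all genes under both scalings.

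In neurons B 15 of the 41 genes rose and 3 fell, where 38.7% and 32.6% of all genes did, so the share of these genes that rose was close to that of all genes. The 3 that fell were cyc-2.2, ucr-2.3 and asb-1. Under equal sums 7 rose and 6 fell (33% and 39.1% of all genes). Without replicate 3 of both fractions 2 rose, without replicate 2 8 rose, and without the second or the third IP library 8 rose. In neurons A limma called 0 genes higher and 1 lower, ucr-2.3, where 15.3% and 12% of all genes were called. At an unadjusted p under 0.05 there were 0 higher and 3 lower, and the authors' deposited test gave 0 higher and 5 lower. Without the third IP library 3 were called higher and 3 lower, without replicate 3 of both fractions 9 and 4, and without the first total RNA library 0 and 0. Replicate numbers were treated as pairing the neurons A libraries, and with a replicate block 4 were lower: cyc-1, ucr-2.3, asb-1 and atp-2.

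In the soma IP 20 rose and 3 fell, against 25.1% and 32.7% of all genes, with a median log2 ratio of 0.63 against -0.09. The 3 were again cyc-2.2, ucr-2.3 and asb-1. Under equal sums 24 rose and 3 fell (26.2% and 31.2% of all genes). Without replicate 1 of both fractions 8 rose, without replicate 2 11 rose, and without the first IP, the first total RNA or the second total RNA library 11, 11 and 13 rose. In the ubiquitous IP 2 rose (lpd-5 and cyc-2.2) and 3 fell (gas-1, nuo-4 and cyc-1), against 16.9% and 20.4% of all genes, and the median log2 ratio was -0.15 against 0.01. With a replicate block, where the numbers were treated as pairing the libraries, 7 fell: gas-1, nduf-9, nuo-4, nuo-5, cyc-1, isp-1 and cyc-2.1. Without the third total RNA library 12 rose and 7 fell, and under equal sums 12 rose and 4 fell (16% and 7.41% of all genes). Leaving out any of the other 5 libraries left 1 gene higher and between 0 and 10 lower. The lowest ratios were those of cyc-2.1, cyc-1 and isp-1. cyc-1 had 11801, 11756 and 12526 normalized counts in the IP against 15195, 17498 and 23896, with every IP library under every total RNA library and a log2 ratio of -0.62 (SE 0.19, adjusted p = 0.0282 by limma).

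**Figure D2:**
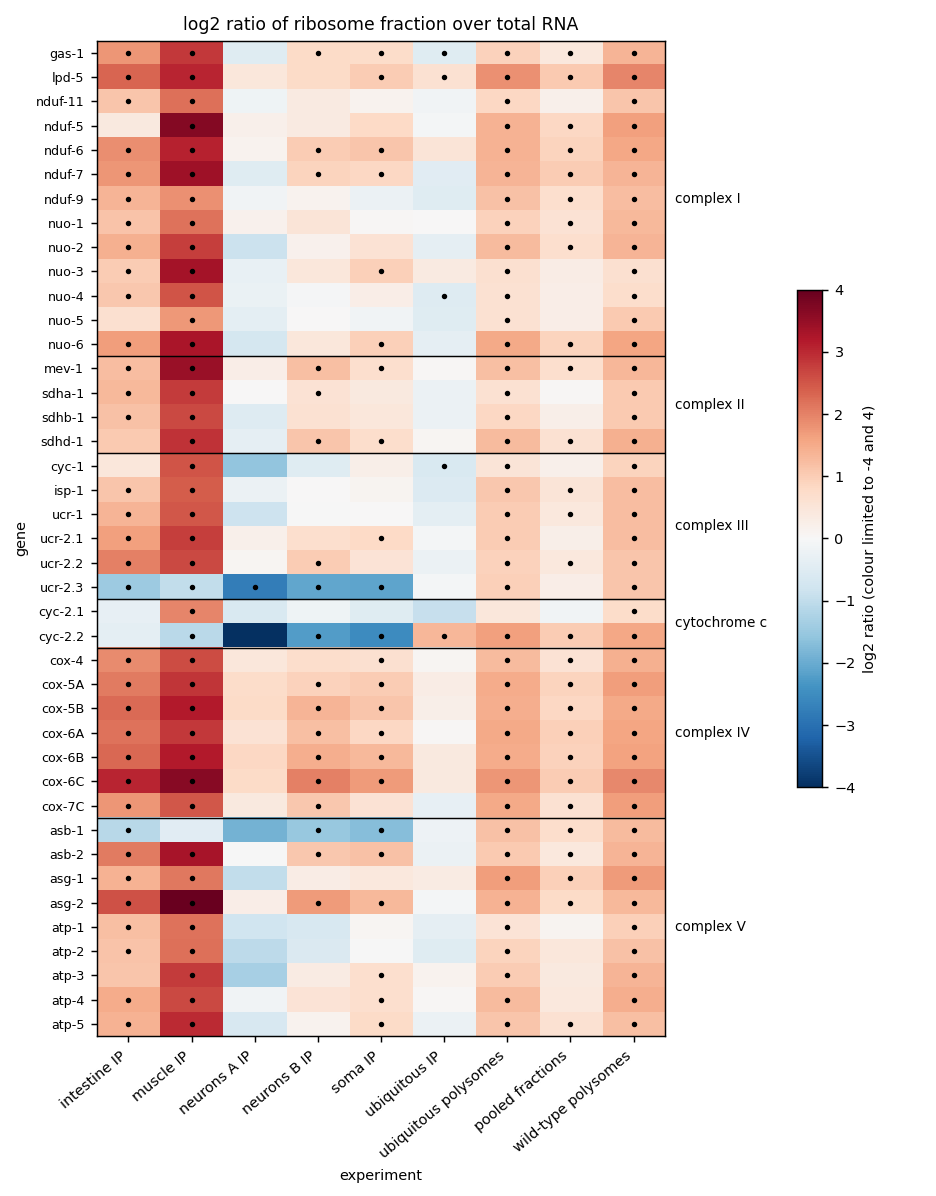
Log2 ratio of ribosome fraction over total RNA (colour, limited to -4 and 4) for the 41 genes (rows, grouped by complex) in the 9 experiments (columns), with black dots for adjusted p under 0.05 by limma. The muscle column is red in all rows but 3, and ucr-2.3, asb-1 and cyc-2.2 are blue in most IP columns driven by a tissue promoter and red in the polysome columns.

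The difference between IPs was tested over the 12 libraries of both experiments. The log2 ratio was higher in muscle than in intestine for 20 genes and lower for 0, where 11.9% of all genes were higher and 12.4% lower. The median difference was 1.12 on the log2 scale, against 0.55 for all genes. Under equal sums 9 were higher (8.42% of all genes, with 12% lower). Without replicate 2 of both experiments 6 were higher and without replicate 3 2 were, and 12 were without the second muscle IP library, 13 without the third and 13 without the third muscle total RNA library. The widest difference was that of nduf-5, with log2 ratios of 3.67 in muscle and 0.40 in intestine (difference 3.27, SE 0.78, adjusted p = 0.00742 by limma). cox-6C had log2 ratios of 3.64 and 3.05 (difference 0.59, SE 0.45, adjusted p = 0.386 by limma).

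Against neurons B the ratio in muscle was higher for 40 genes, where 29.8% of all genes were higher and 27% lower. Without replicate 2 of both experiments it was higher for 26, and under equal sums for 27 (7.23% of all genes, with 36.3% lower). cyc-2.2 was the gene not called (difference 1.14, adjusted p = 0.0794 by limma). Against the soma IP it was higher for 40, where 42.1% of all genes were higher and 19.5% lower, and for 12 under equal sums (5.67% and 31.6% of all genes). The ratio in intestine was higher than in neurons B for 8 genes, where 11.8% of all genes were higher and 18.7% lower, and atp-1 and atp-2, the catalytic core of the ATP synthase, differed the most (1.85 and 1.7). That count was 0 under equal sums (4.36% higher and 21.7% lower among all genes), 16 without the second intestine IP library, 4 without the first intestine IP or first intestine total RNA library, 5 without the second or the third neurons B total RNA library, and 0, 0 and 4 without replicates 1, 2 and 3. No gene was called between the neurons A and neurons B IPs by limma: 0 were higher and 0 lower, where 0.0125% of all genes were higher and 2.41% lower. The counts were also 0 at an unadjusted p under 0.05 and with array weights.

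Complex I takes electrons from NADH. All 13 of its genes rose in the muscle IP, 11 in intestine, 6 in the soma IP and 3 in neurons B. Of all genes tested 23.1%, 17.8%, 25.1% and 38.7% rose in these IPs. The counts of each complex below are to be read beside those shares. nduf-5, the most abundant of them per kilobase in total RNA (8177 normalized counts per kb as the mean of 9 experiments), encodes an accessory subunit. It had 33715, 67388 and 69360 normalized counts in the muscle IP and 5822, 3895 and 3375 in the muscle total RNA. The groups did not overlap, and the log2 ratio was 3.67 (SE 0.31, adjusted p = 2.3e-06 by limma). In the intestine IP nduf-5 had 2997, 617.5 and 3362 against 1303, 1032 and 2006, so the second IP library lay under all 3 total RNA libraries. nuo-6, another accessory subunit, had a log2 ratio of 3.28 in muscle and 1.68 in intestine, both called. lpd-5, also an accessory subunit, was among the 3 highest genes in intestine, with 14773, 13888 and 9231 in the IP against 2290, 2880 and 2216 and a log2 ratio of 2.34 (SE 0.29, adjusted p = 0.000806 by limma). The exons of nuo-3 share 72.6% of their length with another annotated gene on the same strand, and those of nduf-6 share 10.4% with prpf-4 on the opposite strand, so values of both genes are uncertain.

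Complex II oxidises succinate and is also an enzyme of the tricarboxylic acid cycle. Its 4 genes rose in muscle, and 3, 3 and 2 rose in intestine, neurons B and the soma IP. mev-1, which encodes the cytochrome b subunit, had 38467, 52912 and 48469 normalized counts in the muscle IP against 5524, 3817 and 3694, a log2 ratio of 3.44 (SE 0.23, adjusted p = 3.11e-07 by limma). sdhd-1, the other membrane anchor, had a log2 ratio of 2.88 in muscle, which was called, and of 1.04 in intestine, which was not (adjusted p = 0.07 by limma).

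Complex III passes electrons from ubiquinol to cytochrome c. Of its 6 genes, 5 rose and ucr-2.3 fell in muscle, and 4 rose and ucr-2.3 fell in intestine. isp-1, the Rieske iron-sulphur protein, had 61663, 73691 and 72062 normalized counts in the muscle IP against 14536, 12824 and 11473. Its log2 ratios were 2.42 in muscle and 1.1 in intestine, both called. cyc-1, cytochrome c1, had 50535, 91111 and 86283 normalized counts in the muscle IP against 12888, 13533 and 11957, a log2 ratio of 2.52. In the intestine its counts of 8048, 1938 and 9658 overlapped total RNA at 4299, 2166 and 6408.

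Complex IV, cytochrome c oxidase, hands electrons to oxygen. All 7 of its nuclear genes rose in the intestine and muscle IPs, and 6 rose in neurons B and in the soma IP. Its median log2 ratio was the highest of the 5 complexes in intestine (2.17), muscle (2.87), neurons A (0.72), neurons B (1.2) and the soma IP (1.00). The medians were not tested against each other, and in muscle the lead was narrow. There the complex II genes sdhb-1, sdha-1, sdhd-1 and mev-1 stood at 2.63, 2.81, 2.88 and 3.44 in the authors' deposited test. cox-6C, a small structural subunit, had 48031, 66799 and 30372 normalized counts in the intestine IP against 5007, 7642 and 4505. All 3 IP libraries were above all 3 total RNA libraries, and the log2 ratio of 3.05 (SE 0.38, adjusted p = 0.000837 by limma) was the highest of the 41 genes there. In neurons B cox-6C had 15490, 28712 and 42949 against 4176, 9154 and 7738, a log2 ratio of 2.00, and in the soma IP its ratio was 1.70, the highest of the 41 in both. The most abundant complex IV genes per kilobase in total RNA were cox-7C (38352 normalized counts per kb) and cox-5A (30034), with log2 ratios of 2.47 and 2.87 in muscle and 1.76 and 2.08 in intestine, all called. In neurons A cox-6B, cox-5B and cox-6C had the highest log2 ratios of the 41, at 0.82, 0.77 and 0.75, and none was called.

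Complex V makes ATP. Of its 9 genes, 8 rose in muscle, and 7 rose and asb-1 fell in intestine. asg-2, a membrane subunit gene, had 69445, 95476 and 100251 normalized counts in the muscle IP against 7858, 5177 and 4456. Its log2 ratio of 3.95 (SE 0.25, adjusted p = 2.55e-07 by limma) was the highest of the 41 in muscle. atp-2, the catalytic beta subunit and at 39130 normalized counts per kb the most abundant complex V gene, had 281886, 402407 and 373444 against 71618, 83832 and 72452 in muscle, a log2 ratio of 2.2. In intestine its log2 ratio was 1.13 (adjusted p = 0.035 by limma), and -0.06 under equal sums. atp-5, a stalk subunit gene, had log2 ratios of 2.99 in muscle and 1.39 in intestine, both called.

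Several subunits come as pairs of similar genes, and the ratio of such genes within a library does not depend on how the library was scaled. Similar genes can share reads, and how the authors' counting divided these was not tested. In 5 of the 7 pairs compared an X-linked gene is set against an autosomal gene: asb-2 (chromosome X, 4469766 to 4471476) against asb-1 (chromosome III, 4594543 to 4595821), asg-2 (X, 6841258 to 6842121) against asg-1 (I, 8692946 to 8693468), ucr-2.2 (X, 15173904 to 15178145) against ucr-2.3 (III, 879860 to 881458), gas-1 (X) against nduf-2.2 (III), and sdha-1 (X) against sdha-2 (I). Positions are those of the WBcel235 annotation (Ensembl). nduf-2.2 and sdha-2 are not among the 41.

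asb-2 and asb-1 encode the b subunit of the ATP synthase stalk, and asb-1 is known as the germline form. In the muscle IP asb-2 had 126829, 151945 and 124193 normalized counts against 13916, 14239 and 12789, while asb-1 had 5921, 5029 and 5243 against 8245, 7418 and 6612. The log2 of asb-2 over asb-1 was therefore 4.63 ± 0.26 (SD, n = 3) in the muscle IP and 0.88 ± 0.11 in total RNA. It was 3.77 ± 0.64 against 0.59 ± 0.50 in intestine, 3.18 ± 0.35 against 0.58 ± 0.11 in neurons B and 3.65 ± 0.24 against 0.79 ± 0.05 in the soma IP, with no overlap in any. In neurons A the libraries overlapped, at 2.92, 3.47 and 1.22 against 1.01, 1.60 and -0.66. Over the 5 IPs driven by a tissue or soma promoter the fraction exceeded total RNA by 2.86 on the log2 scale (two-sided exact permutation within experiments, adjusted over 7 pairs, p = 1.75e-06). In the 3 gradient experiments the difference was -0.11 (exact permutation, adjusted p = 0.321). Within a single experiment 3 libraries against 3 cannot give an exact two-sided p under 0.1.

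The other pairs with an X-linked gene moved the same way in the 5 IPs. Across all genes tested, too, X-linked genes had a higher median log2 ratio than autosomal genes in each of these IPs. The medians were 0.84 against -0.94 in neurons A, 1.28 against -0.11 in neurons B and 0.68 against -0.37 in the soma IP. They were 0.20 against -0.17 in muscle and -0.22 against -0.44 in intestine. The part of this in the pair differences was not tested. The log2 of gas-1 over nduf-2.2, both encoding a core subunit of complex I, was higher by 2.71 in the fraction, and that of sdha-1 over sdha-2, the flavoprotein of complex II, by 3.13. The log2 of ucr-2.3 over ucr-2.2, core proteins of complex III, was lower by 3.13, with no overlap in all 5 IPs. The log2 of asg-1 over asg-2 was lower by 1.3, again with no overlap in all 5. The exact permutation p, adjusted over 7 pairs, was at most 1.75e-06 for each of these 4. For gas-1 over nduf-2.2 the libraries overlapped in neurons A, at 1.87, 2.52 and -0.09 against -0.34, 0.11 and -1.80. In the third neurons A IP library sdha-2 stood at 0, and without replicate 3 of the 5 IPs the sdha-1 over sdha-2 difference was 2.74. On the gradients gas-1 over nduf-2.2 was also higher in the fraction, by 0.55 (exact permutation, adjusted p = 0.00233), as was sdha-1 over sdha-2, by 0.55 (exact permutation, adjusted p = 0.0035). There asg-1 over asg-2 was higher by 0.30 (exact permutation, adjusted p = 0.00233), opposite to the IPs, and ucr-2.3 over ucr-2.2 differed by -0.06 (exact permutation, adjusted p = 0.296). For gas-1 over nduf-2.2 fraction and total RNA were free of overlap in 1 of the 3 gradient experiments. For sdha-1 over sdha-2 and for asg-1 over asg-2 they were so in 2 of the 3.

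ucr-2.1 and ucr-2.2 are both X-linked, and the difference of their log2 ratio was -0.04 over the 5 IPs (exact permutation, adjusted p = 0.769). cyc-2.1 and cyc-2.2 encode cytochrome c and lie on chromosomes IV and V. cyc-2.2 had 436.6, 274.6 and 259.8 normalized counts in the muscle IP against 1140, 457.9 and 578.6, and 326, 596.6 and 131.3 in the soma IP against 3661, 2122 and 629.4. It fell in muscle, neurons B and the soma IP, with log2 ratios of -1.09, -2.23 and -2.52, and cyc-2.1 rose in muscle by 1.96. The log2 of cyc-2.1 over cyc-2.2 was higher by 2.27 in the fraction over the 5 IPs (exact permutation, adjusted p = 0.000113) and lower by 1.05 in the gradients (exact permutation, adjusted p = 0.00175). Fraction and total RNA did not overlap in 3 of the 5 IPs. In the soma IP they overlapped, at 7.49, 5.82 and 7.64 against 4.04, 4.78 and 6.08. The widest difference was 4.19 in neurons A, with IP libraries at 6.60, 7.40 and 9.63, and the last is the library that stood apart. In the intestine cyc-2.2 had only 28.42 to 116.6 normalized counts in any library, and the groups overlapped.

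Sperm markers were counted beside cyc-2.2, which was not called in neurons A and rose in the ubiquitous IP. Of those tested, 1 of 4 fell in muscle (gsp-3) and 2 of 6 in neurons A, where 13.1% and 12% of all genes fell. In neurons B 3 of 5 fell and spe-9 rose, and in the soma IP 4 of 6 fell, where 32.6% and 32.7% of all genes fell. In intestine 0 of 4 were called. In the ubiquitous IP spe-11 rose (1.26), as did 16.9% of all genes, and the other 5 markers were not called. In ubiquitous and wild-type polysomes 4 of 7 rose in each, where 28.4% and 33.6% of all genes rose. The markers' summed share was 0.00103% to 0.00345% of the soma IP libraries against 0.00282% to 0.0126% of the soma total RNA. It was 0.0201% to 0.0258% of the ubiquitous IP libraries against 0.0117% to 0.0172%. In muscle it was 0.00118% to 0.00178% against 0.00398% to 0.00592%, where spe-38 and peel-1 stood at 0 in some IP libraries. Their part in the cyc-2.2 values was not tested.

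**Figure D3:**
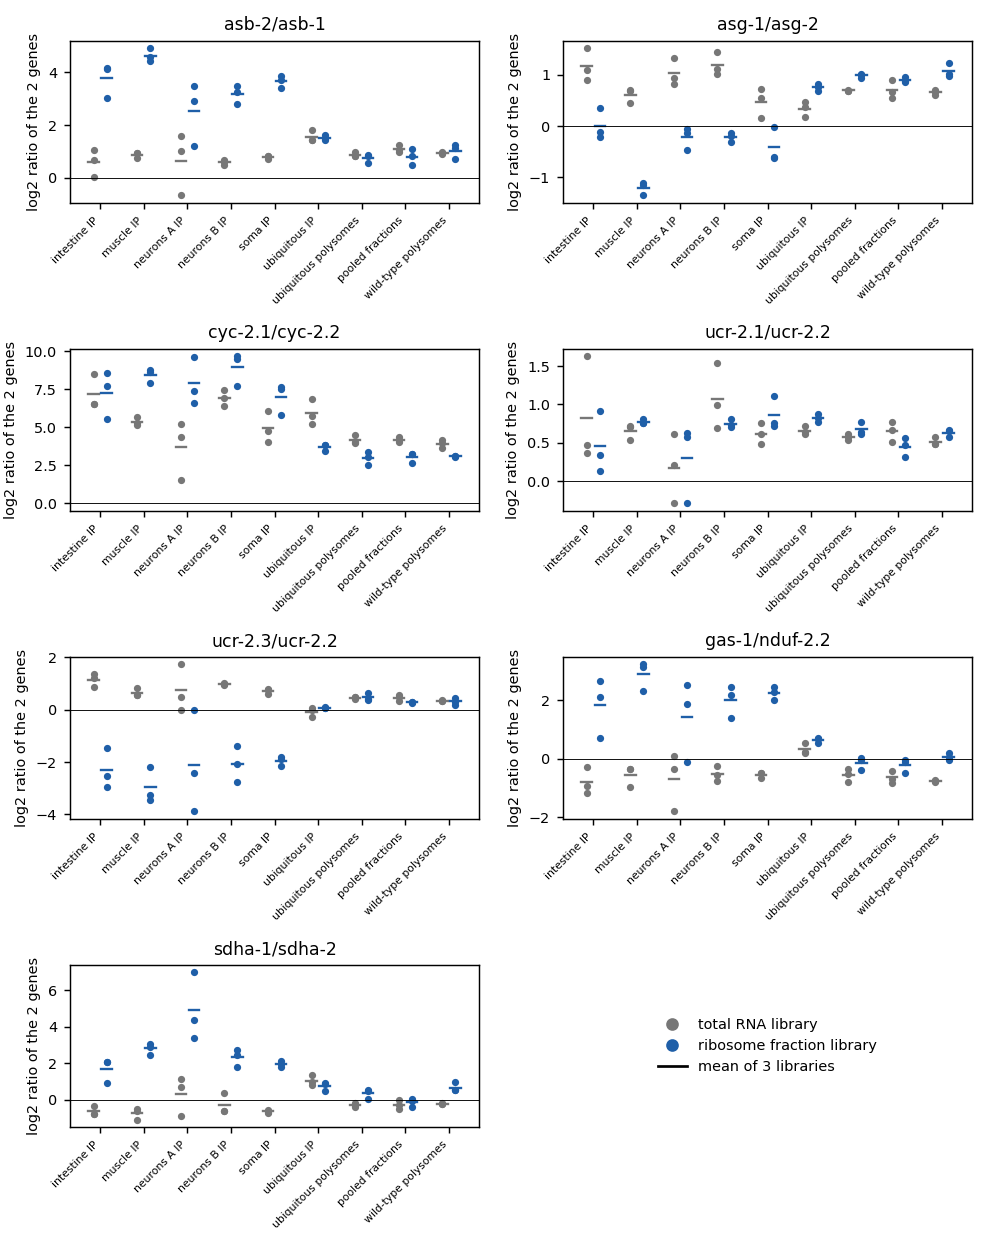
Log2 ratio of the 2 genes named above each panel (y axis) in every library, by experiment (x axis), with grey points for total RNA, blue points for the ribosome fraction and lines for the mean of 3 libraries. For asb-2 over asb-1 the muscle IP lies near 4.63 and its total RNA near 0.88, while fraction and total RNA overlap in the 3 gradient experiments.

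The genes asb-1 and ucr-2.3 fell in intestine, neurons B and the soma IP (ucr-2.3 also in muscle and neurons A). Of the 12 germline markers 11 fell in intestine, 12 in neurons B, 12 in the soma IP, 6 in muscle and 7 in neurons A. Of all genes 9.61%, 32.6%, 32.7%, 13.1% and 12% fell in these IPs, in the same order. Elsewhere the markers were split, and neither gene fell in the ubiquitous IP or in polysomes. In the ubiquitous IP 8 markers fell and 2 rose (20.4% and 16.9% of all genes), while asb-1 (-0.21) and ucr-2.3 (-0.08) were not called. In polysomes of the ubiquitous strain 9 markers fell (30.3% of all genes did), with log2 ratios from -0.54 (pgl-1) to -2.97 (spn-4). There glh-1 (0.37), glh-2 (0.12) and syp-1 (0.38) were not called, while asb-1 (1.18) and ucr-2.3 (0.94) rose. In wild-type polysomes 8 markers fell and 3 rose (33.9% and 33.6% of all genes), while both genes rose. Their summed share was 0.0904% to 0.189% of the soma IP libraries and 0.528% to 0.929% of the soma total RNA, and 0.131% to 0.261% against 0.533% to 0.956% in muscle. In the soma IP asb-1 had 3412, 4349 and 3955 normalized counts against 10265, 13163 and 14699, a log2 ratio of -1.69, and ucr-2.3 had 1444, 2078 and 1235 against 6130, 7253 and 6629, a ratio of -2.1. Neither overlapped its total RNA. The part of germline RNA in these results was not tested. Under equal sums asb-1 and ucr-2.3 also fell in these IPs, and asb-1 fell in muscle too. Under that scaling 40% of all genes fell in intestine, 39.1% in neurons B, 31.2% in the soma IP and 71.2% in muscle. In muscle most genes thus fell along with asb-1.

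On the sucrose gradients nearly all of the genes were higher in the ribosome fraction. In wild-type polysomes 41 of 41 rose, where 33.6% of all genes rose and 33.9% fell, with a median log2 ratio of 1.32 against 0.02. In polysomes of the ubiquitous strain 40 rose, where 28.4% of all genes rose and 30.3% fell, with a median of 1.16 against 0.01, and the remaining gene, cyc-2.1, had a ratio of 0.46 (adjusted p = 0.102 by limma). In the pooled fractions 27 rose, where 20.6% of all genes rose and 23.1% fell, with a median of 0.58 against 0.00. None fell in any of the 3 by limma, at an unadjusted p under 0.05 or by the authors' deposited test. Under equal sums 41 rose in wild type (20.4% of all genes, with 43.7% lower), 35 in the ubiquitous strain (20.2%, with 33.6% lower) and 30 in the pooled fractions (18.7%, with 21.5% lower), and none fell. The lowest ratios in the pooled fractions were those of cyc-2.1 (-0.13), sdha-1 (0.04) and atp-1 (0.12), none of them called.

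lpd-5 had the highest ratio of the 41 in all 3 gradients. It had 9440, 9852 and 7185 normalized counts in wild-type polysomes against 2206, 2163 and 2440, a log2 ratio of 1.95 (SE 0.13, adjusted p = 2.73e-08 by limma). In the ubiquitous strain its ratio was 1.82 in polysomes and 1.06 in the pooled fractions. cox-6C and asg-1 followed, at 1.91 and 1.71 in wild-type polysomes. The lowest ratios in wild-type polysomes were those of nuo-3 (0.64), nuo-4 (0.70) and cyc-2.1 (0.73). asb-1, ucr-2.3 and cyc-2.2, low in the IPs driven by a tissue promoter, rose in both polysome experiments: cyc-2.2 had 2734, 2727 and 1959 against 932.7, 793.4 and 787.2 in wild type, a log2 ratio of 1.55.

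Wild-type and ubiquitous polysomes were compared over 12 libraries. limma called 0 genes higher and 0 lower, as it did over all genes (0% and 0%), with 1 higher and 0 lower at an unadjusted p under 0.05 and 6 higher with array weights. The median difference was 0.16 on the log2 scale. The pooled fractions had a lower ratio than polysomes for all 41 genes, with a median difference of -0.58, yet limma called 0 lower, where it called 5.87% of all genes higher and 0.475% lower. Under equal sums it called 1 lower (0.19% of all genes). At an unadjusted p under 0.05 25 were lower, and with array weights 30 were. No share of all genes was counted for an unadjusted p or for array weights in either comparison. The lowest difference was that of cox-7C (-0.91, SE 0.29, adjusted p = 0.0723 by limma).

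The ubiquitous strain gave different ratios by IP and by gradient. The log2 ratio was lower in the IP than in the polysomes for 39 of 41 genes, where 22.7% of all genes were higher and 21.5% lower, with a median difference of -1.2 against 0.01. Without replicate 3 of both experiments it was lower for 23, and under equal sums for 32 (8.54% of all genes, with 27.6% higher). The 2 genes not called were cyc-2.2 (difference -0.30, SE 0.32) and nuo-3 (-0.30, SE 0.26). nuo-6 had 6874, 6995 and 6588 normalized counts in the IP against 6835, 7744 and 12608 in its total RNA, and 11493, 7948 and 7235 in polysomes against 3012, 3249 and 2988 in theirs. The groups overlapped in the IP and not on the gradient, and the difference was -1.86 on the log2 scale (SE 0.31, adjusted p = 0.000606 by limma).

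The 41 genes held 2.34% to 2.39% of the ubiquitous IP libraries and 2.00% to 2.03% of the polysome libraries, which came from the same strain. They held 2.2% to 2.34% of the total RNA paired with the IP but 1.13% to 1.22% of the total RNA paired with the polysomes. The total RNA of the IP experiment was thus the higher of the pair for these genes, and the 2 ribosome fractions were closer to each other than the 2 total RNAs. The germline markers held 0.362% to 0.601% of the total RNA of the IP and 1.25% to 1.34% of the total RNA of the polysomes. Their part in this difference was not tested, and method, culture and table cannot be told apart.

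**Figure D4:**
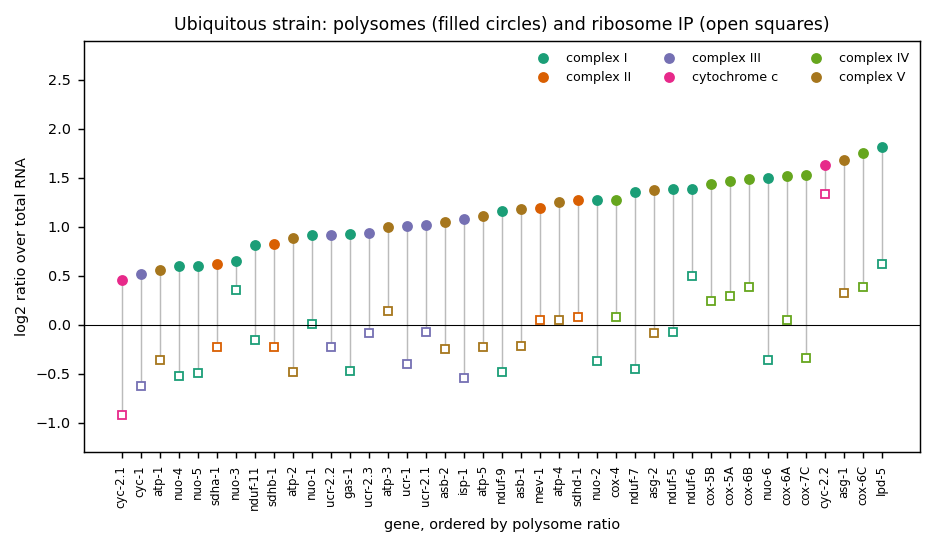
Log2 ratio over total RNA (y axis) of the 41 genes (x axis, ordered by the polysome ratio) in the ubiquitous strain, with filled circles for polysomes, open squares for the ribosome IP and colours for the complex. Every square lies below its circle, with a median difference of -1.2.

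The soma and ubiquitous IPs differed for 14 genes. A higher ratio in the soma IP was called for 11 of the 41 (26.8%) and a lower one for 3 (7.32%). Of all genes 18.4% were higher and 26.3% lower, so the lower share was under that of all genes. The 3 lower were cyc-2.2 (difference -3.86), ucr-2.3 (-2.02) and asb-1 (-1.48), and asb-2 (1.42), asg-2 (1.4) and cox-6C (1.31) were the highest. The 11 became 6, 2 and 7 without replicates 1, 2 and 3 of both experiments, 7 without the first ubiquitous IP library and 17 without the first ubiquitous total RNA library. The lower count was 3 in each of these fits. Under equal sums 10 were higher and 3 lower (13.1% and 27.1% of all genes).

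Shorter transcripts of the 41 had higher ratios on the gradients. Spearman's rho across the genes between the length of the longest annotated transcript and the log2 ratio was -0.78 in polysomes of the ubiquitous strain, -0.71 in those of wild type and -0.64 in the pooled fractions. It was -0.59 in the ubiquitous IP and between -0.29 and -0.46 in the other 5 IPs. Across all genes tested it was -0.39, -0.29 and -0.26 in the gradients, -0.23 in the soma IP and -0.01 in the ubiquitous IP. In the intestine, muscle and neuron IPs it lay between -0.08 and 0.06 across all genes. These values are descriptions across genes that share libraries and complexes, and length goes with complex here, since the complex IV genes are short.

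**Figure D5:**
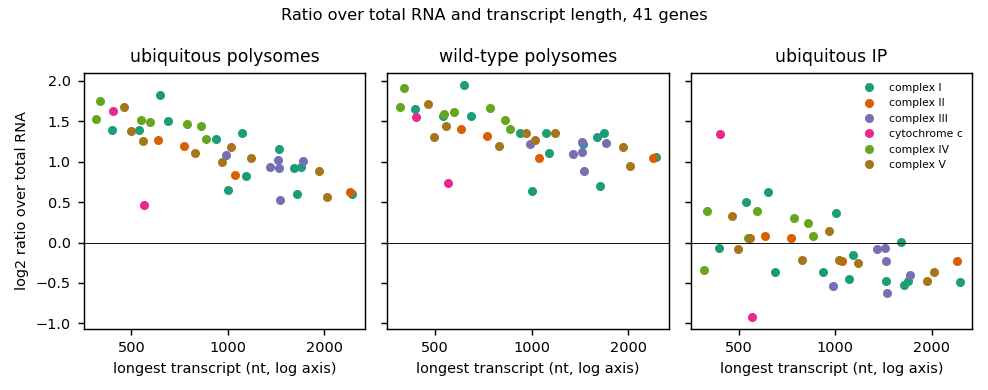
Log2 ratio over total RNA (y axis) against the longest annotated transcript in nucleotides (x axis, log scale) for the 41 genes in 3 experiments, coloured by complex. The points run downward to the right, with rho of -0.78 in polysomes of the ubiquitous strain and -0.71 in those of wild type.

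Other mitochondrial genes were counted beside the 41. Of the 12 protein genes of mitochondrial DNA, 12 fell in the ubiquitous IP (median log2 ratio -5.93), in both polysome experiments (-2.55 and -2.51), in neurons B (-2.69) and in the soma IP (-2.74), whereas 4 fell in intestine and 0 in muscle (median -0.55). The share of all genes tested that fell in these experiments ran from 9.61% in intestine to 33.9% in wild-type polysomes. COX1, the core subunit of complex IV, had log2 ratios of -5.40 in the ubiquitous IP and -0.51 in muscle, CYTB had -4.83 and -0.30, and COX3 had -4.17 and 0.15. Total RNA differed between the IP and polysome experiments of the ubiquitous strain, which were normalized separately. Mean counts of ATP6 were 135628 and 11454 in total RNA, and 930.9 and 1711 in the fractions. Those of COX1 were 255863 and 93369 in total RNA, and 5980 and 32916 in the fractions. The muscle values rest on 1 total RNA library: CYTB had 52178, 37632 and 37700 normalized counts in the IP against 108976, 34940 and 35975, and COX1 had 84025, 65976 and 63833 against 192009, 72414 and 74152. The first total RNA library was above every IP library for both genes, and the other 2 were below every IP library for CYTB and within the IP range for COX1. Of 19 genes of the tricarboxylic acid cycle and pyruvate dehydrogenase, 16 rose in muscle and 0 fell (median 1.81), and 16 rose in wild-type polysomes. Of all genes 23.1% rose in muscle and 33.6% in wild-type polysomes. mdh-2, malate dehydrogenase, had log2 ratios of 3.00 in muscle, 1.61 in intestine and 1.27 in wild-type polysomes, cts-1, citrate synthase, had 1.39 in muscle, and aco-2, aconitase, had 2.27 in muscle, all called.

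Of 8 ubiquinone synthesis genes 8 rose in muscle (median 1.08), among them coq-8 (0.72), coq-5 (0.63) and coq-1 (1.43), and of 21 assembly factors of the complexes 13 rose and 1, cox-16, fell there (median 0.84). The most abundant of these, cchl-1, cox-15 and bcs-1, had log2 ratios of 0.08, 0.15 and -0.18 in muscle, none called. In the ubiquitous IP 1 assembly factor, coa-7, rose and 10 fell, where 16.9% of all genes rose and 20.4% fell. Of 70 mitochondrial ribosomal proteins 38 rose in muscle and 0 fell, where 23.1% of all genes rose and 13.1% fell. In neurons B 34 of them fell, as did 32.6% of all genes. Cytosolic ribosomal proteins serve as a comparison of short abundant transcripts. They rose for 70 of 78 in ubiquitous polysomes and 71 in wild type (medians 1.23 and 1.31), where 28.4% and 33.6% of all genes rose. They fell for 70 in the soma IP, where 32.7% of all genes fell. mai-2, an inhibitor of the ATP synthase, had log2 ratios of 3.42 in muscle, 2.81 in intestine and 2.04 in wild-type polysomes, and ant-1.1, the most abundant adenine nucleotide carrier gene, had 1.93, 0.12 and 0.84, where the intestine value was not called. ucp-4, an uncoupling protein gene, had 0.86 in muscle and -1.64 in the ubiquitous IP, both called.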

How the data were processed

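RNA was measured in 54 libraries of 18 groups. The submitters' processing notes name build ce11, R 4.0.4, kallisto 0.46.1 and DESeq2 1.30.1, without their roles. Each deposited table lists, for every library, a count that the authors had normalized within that table (a signal, not whole reads). Deposited with them were the authors' log2 ratios (unit: log2), test scores, p-values and -log10 adjusted p-values. Here, genes with a mean of at least 10 were fitted in R 4.3.3 with limma 3.58.1, two-sided, after a log2 transform with a pseudocount of 1, with interaction terms over 12 libraries. Fold changes of low genes are understated on that scale. Tables were prepared with Python 3.11.15, pandas 2.3.3 and numpy 2.4.6, and symbols (19414 of 20728 identifiers matched) and positions came from Ensembl release 115. Fits were tested on simulated data.

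Depth came from the spacing of low values, taking the widest spacing that scored close to the best, a rule chosen after the values were seen. From 72.2% to 99.5% of low values lay within 0.1 of a whole multiple, and the strictly best spacing put the soma libraries deeper. Whole reads were therefore not recovered.

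The members and lists were chosen with earlier results of these data known. Genes named are those of the pairs, the 2 most abundant per kilobase of each complex, the 3 highest and lowest of each experiment, those called against the majority, and the 3 most abundant of other lists, with ribosomal proteins given as counts only. Replicate numbers were taken to pair fraction and total RNA where the correlation of their deviations exceeded 0.1 for every number: intestine (lowest 0.304), neurons A (0.313) and ubiquitous IP (0.187). Every library was best matched by its own number in intestine and the ubiquitous IP, but not in neurons A, so pairing there is uncertain. The soma libraries were also best matched by their own number, but their lowest correlation was 0.0811. No 2 libraries were identical.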

Additional observations from a re-analysis of the deposited data

Results flagged for a closer look

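Differences between experiments were tested by limma's interaction term, and the following counts of the 41 genes passed an adjusted p of 0.05. The share of all genes tested that passed in the same direction stands in brackets. The ratio over total RNA was higher in the muscle IP than in the intestine IP for 20 genes (11.9%). It was higher in muscle than in neurons B for 40 (29.8%) and than in the soma IP for 40 (42.1%). It was higher in the intestine IP than in the neurons B IP for 8 (11.8%). It was higher in the soma IP than in the ubiquitous IP for 11 (18.4%) and lower for 3 (26.3%). It was lower in the ubiquitous IP than in polysomes of the same strain for 39 (21.5%).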

How the results depend on the processing

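Under equal-sum scaling the genes called higher became 7 in the intestine IP, 7 in neurons B and 12 in the ubiquitous IP, and those called lower in neurons B became 6. Between experiments they became 9 for muscle over intestine, 0 for intestine over neurons B and 12 for muscle over soma, and 1 gene was lower in the pooled fractions than in polysomes. In the intestine IP this scaling reversed nduf-11 (-0.07), nuo-1 (-0.06), nuo-3 (-0.18), nuo-4 (-0.10), sdhb-1 (-0.03), isp-1 (-0.09) and atp-2 (-0.06). This scaling lowers intestine ratios as a whole (the median of all genes goes from -0.42 to -1.65). The sign changes came with that shift and do not single out these genes. Which scaling is nearer to the RNA was not tested.

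With array weights 11 genes were higher and 3 lower in neurons A, 9 higher and 8 lower in the ubiquitous IP, 33 higher in muscle over intestine, 32 in intestine over neurons B, 6 in wild-type over ubiquitous polysomes, and 30 lower in pooled fractions than in polysomes. Shares of all genes called by adjusted p were counted only for the limma fit first described and for equal sums. Counts under the other settings therefore cannot be set against all genes. A pseudocount of 5 gave 2 lower in neurons A. The authors' deposited test gave 5 lower in neurons A and 8 in the ubiquitous IP. The replicate block gave 4 lower in neurons A, 7 lower in the ubiquitous IP and 19 higher in intestine over neurons B, where numbers were not taken to pair neurons B, and moved no other count by over 1.5 times.

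Leaving out replicates or single libraries gave 3 to 36 higher and 0 to 2 lower in intestine, 0 to 3 lower in muscle, 0 to 9 higher and 0 to 4 lower in neurons A, 2 to 22 higher in neurons B, 8 to 18 higher in soma, and 1 to 12 higher and 0 to 10 lower in the ubiquitous IP. Between experiments it gave 2 to 22 higher for muscle over intestine, 26 to 41 for muscle over neurons B, 0 to 16 for intestine over neurons B, 2 to 17 for soma over ubiquitous IP, 23 to 39 lower for ubiquitous IP under polysomes and 0 to 1 lower for pooled fractions under polysomes. The gradient difference of ucr-2.1 over ucr-2.2 ran from -0.04 to 0.05. The counts for muscle, ubiquitous polysomes, wild-type polysomes and pooled fractions higher than total RNA stayed within 1.5 times under every alternative run. The shallow second intestine IP library and the third neurons A IP library limit what those experiments can call.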

Other observations

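The 6 X-linked genes among the 41 (gas-1, sdha-1, ucr-2.1, ucr-2.2, asb-2 and asg-2) had a median log2 ratio of 1.88 in the intestine IP, against 1.22 for the 35 autosomal genes. The medians were 0.89 against 0.36 in neurons B, 0.04 against -0.31 in neurons A, 0.76 against 0.57 in the soma IP and 2.82 against 2.63 in muscle. In the ubiquitous IP they were -0.23 against -0.08. In polysomes of the ubiquitous strain they were 0.98 against 1.19, and in wild-type polysomes 1.27 against 1.35. Across all genes tested the medians of X-linked and autosomal genes were 1.28 and -0.11 in neurons B, 0.84 and -0.94 in neurons A and 0.68 and -0.37 in the soma IP. They were 0.20 and -0.17 in muscle, -0.22 and -0.44 in intestine and 0.10 and -0.01 in the ubiquitous IP.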
